A study of Mus musculus with 16 samples.

Results

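The 10 genes described here control the passage of a cell from G1 into S phase. They are the D-type cyclins (Ccnd1, Ccnd2, Ccnd3), the kinases that the D cyclins activate (Cdk4, Cdk6), 4 genes of kinase inhibitors (Cdkn1a, Cdkn1b, Cdkn2a, Cdkn2c) and the retinoblastoma gene Rb1. They were picked by symbol from the 55414 Ensembl identifiers of the deposited count table. All 10 were found there, and 9 passed the filter of a mean of at least 10 counts; Cdkn2a did not.

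RNA was sequenced from 16 bulk libraries of leukaemia-propagating cells (LPC), with 4 libraries in each of 4 groups. All groups model infant pro-B acute lymphoblastic leukaemia in mice of the genotype miR-128a overexpressing Kmt2a-AFF1+, so the fusion and the microRNA are shared by every library and no unmodified cells serve as controls. The groups are BM LSK and CNS LSK (bone marrow or central nervous system cells sorted as Lin- Sca1+ cKit+ IL7R+) and BM LK and CNS LK (Lin- Sca1- cKit+, named LK/CLP in the labels). The design compares niches (CNS with BM) and LPC types (LSK with LK). The sources used here give no age, sex, promoter of the transgene or number of animals, and p-values therefore measure the spread between these libraries, which may be technical. Each BM library has a CNS partner of the same number and LPC type whose label carries the same stem (LSK 1, for example), so there are 8 stems; what a stem is was not given in the sources used here.

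Library totals lay between 19.2 and 29.2 M (mega) counts. The labelled pro-B identity was borne out by only some of its markers: Rag1 averaged 260 to 292 CPM (counts-per-million values) over the groups, Il7r 79.7 to 86.9 CPM and Dntt 42.8 to 118 CPM. Cd79a, Pax5 and Ebf1 averaged at most 1.25 CPM in any group, and Vpreb2 was at 0 in CNS LK. Of the 10 T and NK cell markers, Lck (218 to 228 CPM) and Zap70 (55.8 to 57.7 CPM) were high, while Cd3e averaged at most 0.425 CPM. Summed over their lists, 10 myeloid markers lay at 2.01 to 4.39 CPM in BM and 2.29 to 7.64 CPM in CNS libraries, 8 microglial and brain macrophage markers at 4.31 to 6.24 and 5.09 to 6.56 CPM, and 12 neural, glial and meningeal markers at 33.7 to 46.9 and 36.1 to 61.6 CPM, mostly Mbp; S100a8 was at 0 in every BM LSK library, no list was at 0 in any library, and their part in the niche values was not tested. The cells are called LSK and LK below, as sorted. In bulk RNA, fewer cells of a type and less RNA per cell cannot be told apart.

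As background, D cyclins bind and activate Cdk4 and Cdk6, which phosphorylate the retinoblastoma protein and so release E2F transcription factors that switch on genes for DNA replication. Inhibitors of the INK4 family (p16, from Cdkn2a, and p18, from Cdkn2c) bind the kinases themselves, and inhibitors of the CIP/KIP family (p21, from Cdkn1a, and p27, from Cdkn1b) bind cyclin-kinase complexes. In lymphoid progenitors, Cdk6 and Ccnd3 are known as important members of this pathway, and KMT2A fusions are known to drive CDK6.

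Levels within the family spanned a wide range, while 8 of the 9 genes tested passed no comparison between groups at the count minimum of 10. Per kilobase of exon, Cdk6 stood at 33.9 CPM, Cdk4 at 29.5, Cdkn2c at 23.0, Ccnd3 at 17.7, Cdkn1b at 9.91 and Rb1 at 3.88 (means over 16 libraries). The remaining 4 genes lay far below: Cdkn1a at 0.382 CPM per kilobase, Ccnd1 at 0.156, Cdkn2a at 0.137 and Ccnd2 at 0.0608. Among the 6 genes at the top the order depends on the length used, and with the longest transcript Cdk4 (46.7 CPM per kilobase) stood above Cdk6 (41.1) and Ccnd3 (40.2). As a yardstick for stray reads, 1462 olfactory and vomeronasal receptor genes, which blood cells are not known to use, had a median of 0.0489 CPM per kilobase. Ccnd2 exceeded 67.6% of them, Cdkn2a 95.8%, Ccnd1 97.1% and Cdkn1a 99.5%.

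**Figure D1:**
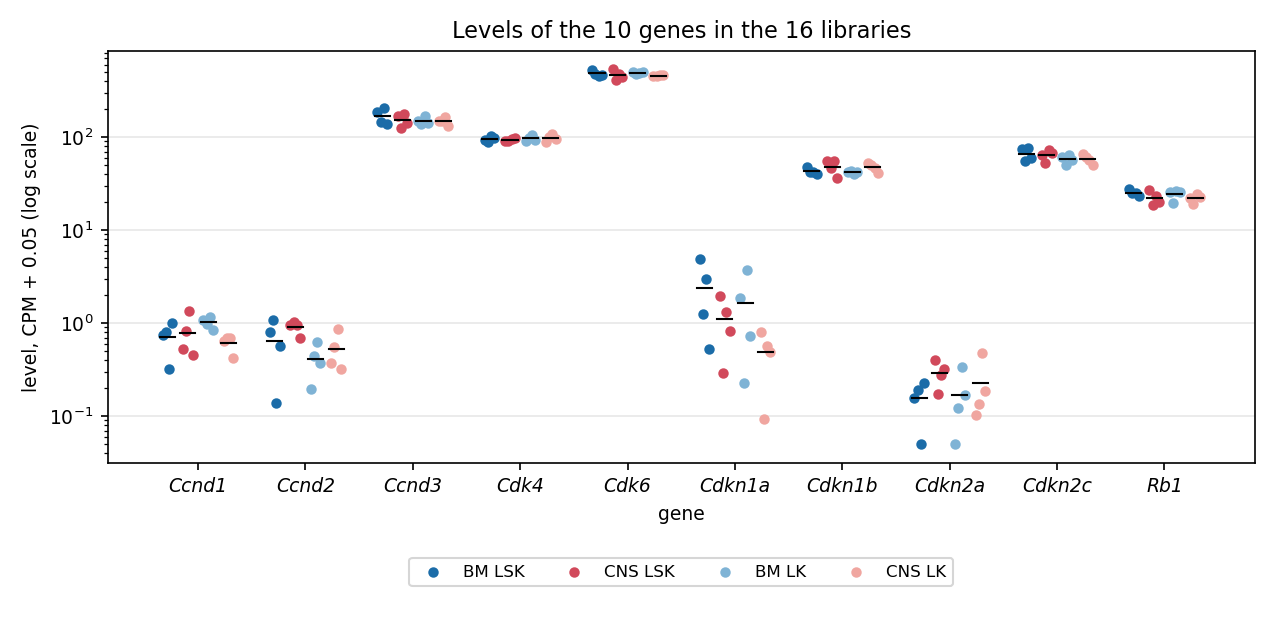
Level of each of the 10 genes in each of the 16 libraries, in CPM plus 0.05 on a log scale, with 1 point per library coloured by group and a bar at each group's mean. Cdk6, Ccnd3, Cdk4, Cdkn2c, Cdkn1b and Rb1 form tight columns, while Cdkn1a spreads from 0.0425 to 4.86 CPM.

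Promoter sequences from RefSeq (build GRCm38.p6; the table held 7 of the 10 genes) are shown for the genes that the results turn on: Cdkn1a, with the one change called between niches, Cdk4, the steadiest gene, and Ccnd3 and Cdkn2c, the pair whose levels followed each other most closely. Each runs 5′ to 3′ from 250 bases before to 30 bases after a transcription start, and the counts do not say which start was used. For Cdkn1a (chr17:29090729-29091008, plus strand), the first of the 2 listed starts, capitals mark a pair of CATG core words, 6 bases apart, of a p53 response element, with the bases between them. For Cdk4 (chr10:127063285-127063564, plus strand), capitals mark E-boxes (CACGTG), the word bound by MYC and its relatives. For Ccnd3 (chr17:47593217-47593496, plus strand, the second listed start) and Cdkn2c (chr4:109666727-109667006, minus strand, the first), capitals mark GC boxes (GGGCGGGG on either strand), the word bound by SP and KLF factors.
Cdkn1a promoter: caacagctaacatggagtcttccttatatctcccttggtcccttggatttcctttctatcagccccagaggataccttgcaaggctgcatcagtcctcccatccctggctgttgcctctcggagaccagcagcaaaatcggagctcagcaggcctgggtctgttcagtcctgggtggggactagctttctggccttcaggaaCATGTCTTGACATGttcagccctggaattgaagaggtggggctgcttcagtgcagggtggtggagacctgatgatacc
Cdk4 promoter: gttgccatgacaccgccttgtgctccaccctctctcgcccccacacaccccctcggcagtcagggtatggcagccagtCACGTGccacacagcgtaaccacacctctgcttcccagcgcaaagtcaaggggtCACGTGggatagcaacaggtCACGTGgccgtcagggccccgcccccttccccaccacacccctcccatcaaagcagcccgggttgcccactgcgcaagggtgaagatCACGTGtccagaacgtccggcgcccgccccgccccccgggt
Ccnd3 promoter: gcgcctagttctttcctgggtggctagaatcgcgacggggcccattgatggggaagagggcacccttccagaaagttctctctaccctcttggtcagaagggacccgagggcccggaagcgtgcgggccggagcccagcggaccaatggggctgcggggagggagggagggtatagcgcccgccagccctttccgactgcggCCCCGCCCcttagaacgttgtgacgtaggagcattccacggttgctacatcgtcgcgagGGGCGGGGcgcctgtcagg
Cdkn2c promoter: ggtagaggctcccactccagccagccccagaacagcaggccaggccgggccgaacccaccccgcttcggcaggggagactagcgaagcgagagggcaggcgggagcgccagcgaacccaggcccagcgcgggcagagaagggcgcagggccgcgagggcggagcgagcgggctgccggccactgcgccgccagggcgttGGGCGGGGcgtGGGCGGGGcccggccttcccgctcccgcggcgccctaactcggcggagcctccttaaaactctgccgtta

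All 4 words were searched on both strands of windows of 300 bases and were chosen after these promoters were seen. The p53 core pair began 48 bases before the first listed Cdkn1a start and occurred in 0.624% of the 32544 distinct windows searched. The second listed Cdkn1a window had 0 such pairs and 1 GC box. Cdk4 had 4 E-boxes, beginning 172, 118, 98 and 11 bases before its start; 7.17% of windows had at least 1 and 0.0246% at least 4. The Ccnd3 and Cdkn2c windows shown had 2 GC boxes each, as had that of Cdk4, and 5.41% of windows had at least 2; the other listed windows of Ccnd3 and Cdkn2c had 1 and 0. E2F words (TTTCGCGC, TTTGGCGC, TTTCCCGC, TTTGCCGC; 2.28% of windows) were found among these genes in the first Cdkn2a window. The Cdkn1a window shown was 54.3% G and C with 2 CpG pairs, and the Cdkn2c window shown was 75.0% with 32. The medians of all windows were 52.5% and 7.

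Among the D cyclins, Ccnd3 was the expressed one in every library, at 126 to 203 CPM. The ratio of Ccnd2 to Ccnd3 counts, not corrected for length, averaged 0.00237 in BM LK and 0.00565 in CNS LSK, the lowest and highest of the groups. Ccnd3 levels were 185, 147, 203 and 139 CPM in BM LSK libraries 1 to 4, 170, 126, 177 and 143 in CNS LSK, 148, 139, 170 and 141 in BM LK, and 148, 150, 165 and 131 in CNS LK. The 4 groups overlapped throughout, and the means of 169 ± 30.5 CPM (SD, n = 4) in BM LSK and 149 ± 14.2 CPM in CNS LK, the ends of the order, differed by less than the spread within BM LSK. The SD of Ccnd3 stem means within an LPC type was 0.191 on the log2 scale. The CNS minus BM differences averaged −0.068 over the 8 stems, with an SD of 0.114. A processed copy, Ccnd3-ps (881 aligned bases, 96.3% identity), held a mean of 16.3 counts against 3660 for Ccnd3. Ccnd3 also shares 361 exon bases with Bysl on the opposite strand, which held a mean of 643 counts, so Ccnd3 counts may include Bysl reads.

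Ccnd1 and Ccnd2, the other D cyclins, gave few reads. Ccnd1 counts ran from 6 to 29 per library. Its levels were 1.04, 0.934, 1.11 and 0.801 CPM in BM LK and 0.589, 0.637, 0.647 and 0.369 CPM in CNS LK, so the LK niches did not overlap, as was also the case for Cdk6 and for 2.18% of all genes tested. The LK difference of Ccnd1 was −0.80 ± 0.396 (log2, SE) and did not pass (edgeR's quasi-likelihood test, adjusted p = 1). In LSK the groups overlapped (0.268 to 0.959 CPM in BM, 0.409 to 1.303 CPM in CNS), and the difference between the LSK and LK niche changes did not pass (0.94 ± 0.562, adjusted p = 1). Ccnd1 shares 1100 exon bases with LTO1 on the opposite strand, which held a mean of 231 counts against 17.5 for Ccnd1; use of strand in the counting is not given in the sources used here, so reads of the 2 genes may be mixed.

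Ccnd2 counts ran from 2 to 29 per library. Its levels were 0.747, 1.03, 0.0893 and 0.523 CPM in BM LSK and 0.915, 0.967, 0.899 and 0.637 CPM in CNS LSK. In BM LK they were 0.144, 0.395, 0.577 and 0.320 CPM, and in CNS LK 0.321, 0.510, 0.820 and 0.269 CPM. BM LSK held both the highest and the lowest library. LSK exceeded LK by 0.80 ± 0.369 on the log2 scale over both niches, which did not pass after adjustment (edgeR adjusted p = 0.397). The mean level of the receptor genes was the yardstick for stray reads. It ran higher in CNS LSK (0.0760 to 0.114 CPM per kilobase) than in BM LK (0.0340 to 0.0508). The ranges of BM LSK (0.0315 to 0.086) and CNS LK (0.0409 to 0.0997) overlapped both. The part of this background in the Ccnd2 and Ccnd1 values was not tested.

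The kinases were the least variable of the genes. Cdk4 ran from 88.3 to 108 CPM over the 16 libraries, a coefficient of variation of 6.18%, and its group means lay between 93.5 ± 3.92 CPM in CNS LSK and 98.2 ± 7.97 CPM in CNS LK (SD, n = 4). None of its neighbours in that order was separated by more than the spread. The Cdk4 change between niches was −0.004 ± 0.0512 on the log2 scale, with a 95% interval from −0.11 to 0.10. Cdk4 shares 641 exon bases with Tspan31 on the opposite strand, at a mean of 53.9 counts against 2281 for Cdk4. Cdk6 ran from 408 to 533 CPM, and Cdk6 counts were 4.70 to 5.08 times those of Cdk4 in the group means of the ratio, which is not corrected for length.

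Cdk6 levels were 504, 473, 483 and 495 CPM in BM LK and 451, 457, 460 and 468 CPM in CNS LK. Every CNS LK library was thus below every BM LK library, though the change of −0.09 ± 0.0757 on the log2 scale did not pass (edgeR adjusted p = 1). In LSK the niches overlapped, with 451 to 531 CPM in BM and 408 to 533 CPM in CNS. In 6 of 8 stems the CNS library held less Cdk6, and the change over both LPC types was −0.07 (95% interval −0.18 to 0.04).

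No gene of the family passed the comparison of niches over both LPC types (edgeR's quasi-likelihood test, Benjamini-Hochberg adjusted p under 0.05; 0 of 9 tested, where 0% of 18878 genes were called). DESeq2 called 0 of them and 40 genes in all. At an unadjusted p under 0.05 stood Cdkn1b, higher in CNS, and Cdkn1a and Rb1, lower in CNS, beside 9.15% of all genes. With the stem as a block, which compares the BM and CNS libraries of one stem, 0.667% of genes passed (126; 0.381% were lower in CNS), and 1 of the 9 was among them: Cdkn1a. Within LSK and within LK edgeR called 0 of the 9 without the block, as it did 0% of all genes; at an unadjusted p under 0.05 stood 0 of the 9 in LSK (5.74% of all genes) and Cdkn1a in LK (3.99%). The niche medians were −0.07 for the 9 genes and 0 for all genes.

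Cdkn1a, the p21 inhibitor induced by p53 and other stress signals, fell in CNS in the blocked comparison. Its levels were 4.86, 1.21, 2.90 and 0.480 CPM in BM LSK libraries 1 to 4 and 1.92, 0.242, 1.26 and 0.773 CPM in CNS LSK. They were 1.84, 0.180, 3.65 and 0.681 CPM in BM LK and 0.750, 0.0425, 0.518 and 0.436 CPM in CNS LK. The groups overlapped, but the CNS library was the lower one in 7 of 8 stems, all but LSK 4. At least 7 of 8 stems were lower in CNS for 6.64% of all genes.

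The blocked Cdkn1a change was −1.37 ± 0.298 on the log2 scale (95% interval −1.997 to −0.75; edgeR adjusted p = 0.036). Without the block it was −1.50 ± 0.554 (95% interval −2.66 to −0.34; adjusted p = 0.429), or −1.56 (adjusted p = 0.0141) with no filter on low counts. The Cdkn1a stems themselves differed widely, with an SD of stem means of 0.816 on the log2 scale, the largest of the 10 genes, and a coefficient of variation over libraries of 101%. The values rest on 1 to 91 counts per library, and on 1 count in CNS LK 2. Cdkn1a shares 273 exon bases with a transcript on the opposite strand, AC167363.2, which held a mean of 2.25 counts.

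The blocked Cdkn1a call was lost when any of 5 stems was left out. The adjusted p was then 0.124 without LSK 1, 0.0979 without LSK 2, 0.102 without LSK 3, 0.101 without LK 1 and 0.22 without LK 3. It was 0.00717 without LSK 4, 0.0448 without LK 2 and 0.021 without LK 4, and the Cdkn1a change stayed between −1.58 and −1.08. Within an LPC type, the blocked Cdkn1a change passed in neither LSK (−1.08 ± 0.389, adjusted p = 0.39, where 0.138% of genes passed) nor LK (−1.66 ± 0.451, adjusted p = 0.343, where 0.0636% passed), and the difference between these changes did not pass (0.58 ± 0.592, adjusted p = 1).

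**Figure D2:**
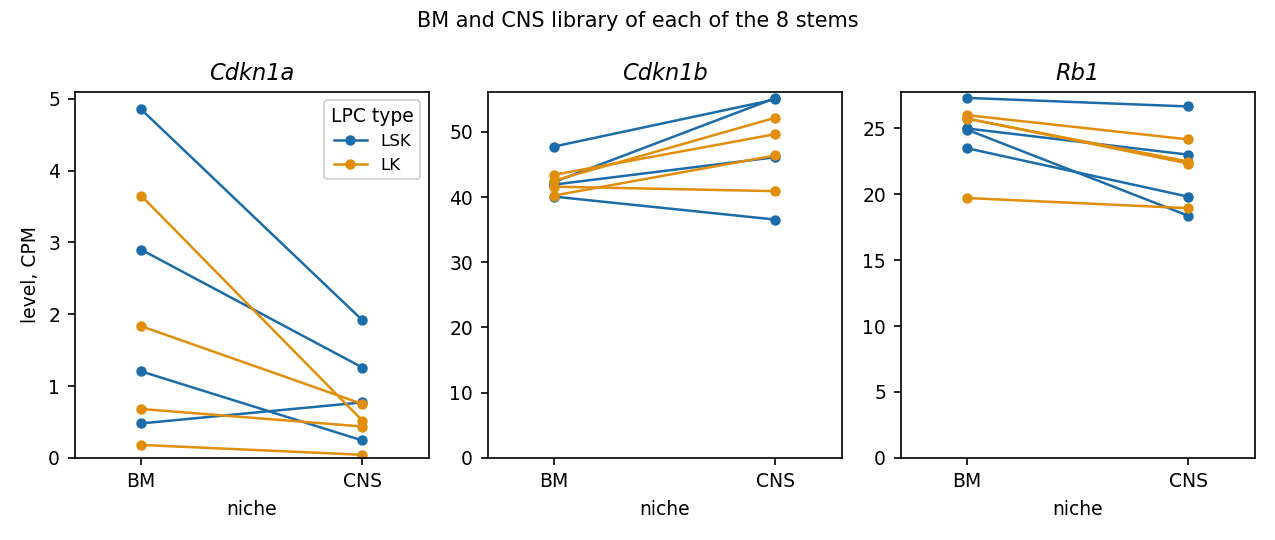
Levels in CPM of Cdkn1a, Cdkn1b and Rb1 in the BM and CNS library of each of the 8 stems, joined by a line and coloured by LPC type; each axis starts at 0. Cdkn1a falls in 7 stems, Cdkn1b rises in 6 and Rb1 falls in 8, with much smaller relative steps for the last pair.

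Cdkn1b, which encodes p27, was at 36.6 to 55.2 CPM. Its levels were 47.8, 41.9, 42.3 and 40.1 CPM in BM LSK and 55.0, 46.1, 55.2 and 36.6 CPM in CNS LSK. In BM LK they were 42.5, 43.4, 40.2 and 41.6 CPM, and in CNS LK 52.2, 49.7, 46.4 and 40.9 CPM. The CNS library was the higher one in 6 of 8 stems, all but LSK 4 and LK 4, and the BM LK libraries lay closer together than those of any other group. The change was 0.17 ± 0.0758 on the log2 scale without the block (adjusted p = 0.518) and 0.16 ± 0.053 with it (adjusted p = 0.206), so neither passed.

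Cdkn2c, which encodes p18, was above Cdkn1b per kilobase and lay at 50.6 to 76.7 CPM. Its levels were 73.5, 55.7, 76.7 and 59.0 CPM in BM LSK, 64.9, 52.5, 71.9 and 67.6 in CNS LSK, 61.2, 50.6, 63.9 and 57.1 in BM LK, and 65.6, 60.8, 57.2 and 50.6 in CNS LK. All groups overlapped. LSK was 0.16 ± 0.0812 above LK on the log2 scale, which did not pass (edgeR adjusted p = 0.446), and the niche change was −0.02 (95% interval −0.19 to 0.15).

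Cdkn2a, whose transcripts encode p16 and p19Arf, gave 60 counts in all 16 libraries together, 0 to 10 per library. It was at 0 counts in BM LSK 3 and BM LK 1, and its highest value was 0.432 CPM in CNS LK 3. Its counts summed to 10 in BM LSK, 22 in CNS LSK, 11 in BM LK and 17 in CNS LK. By CPM the CNS library held more Cdkn2a in 7 of 8 stems, all but LSK 2. For 7.66% of the genes tested at least 7 of 8 stems were higher in CNS. The mean of the receptor genes was higher in CNS in 7 of 8 stems too, but there the exception was LK 2. Its part in these values was not tested. Cdkn2a was too low for the test, and its level exceeded that of 95.8% of the receptor genes.

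Rb1, the substrate of the kinases, was at 18.4 to 27.3 CPM. Its levels were 27.3, 24.9, 25.0 and 23.5 CPM in BM LSK and 26.7, 18.4, 23.0 and 19.8 CPM in CNS LSK. In BM LK they were 25.8, 19.7, 26.0 and 25.7 CPM, and in CNS LK 22.3, 18.95, 24.2 and 22.5 CPM. All 8 stems had less Rb1 in CNS, though the groups overlapped. For 6.64% of all genes at least 7 of 8 stems were lower in CNS, and the share for all 8 was not computed. The change was −0.17 ± 0.0808 on the log2 scale without the block (adjusted p = 0.544) and −0.18 ± 0.0527 with it (adjusted p = 0.16), and it did not pass; with no filter on low counts the blocked Rb1 change did (−0.23, adjusted p = 0.0479). Rb1 overlaps Rcbtb2 (488 shared exon bases, a mean of 606 counts) and Lpar6 (408 bases, 133 counts) on the opposite strand, so its 554.5 mean counts may hold reads of both.

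**Figure D3:**
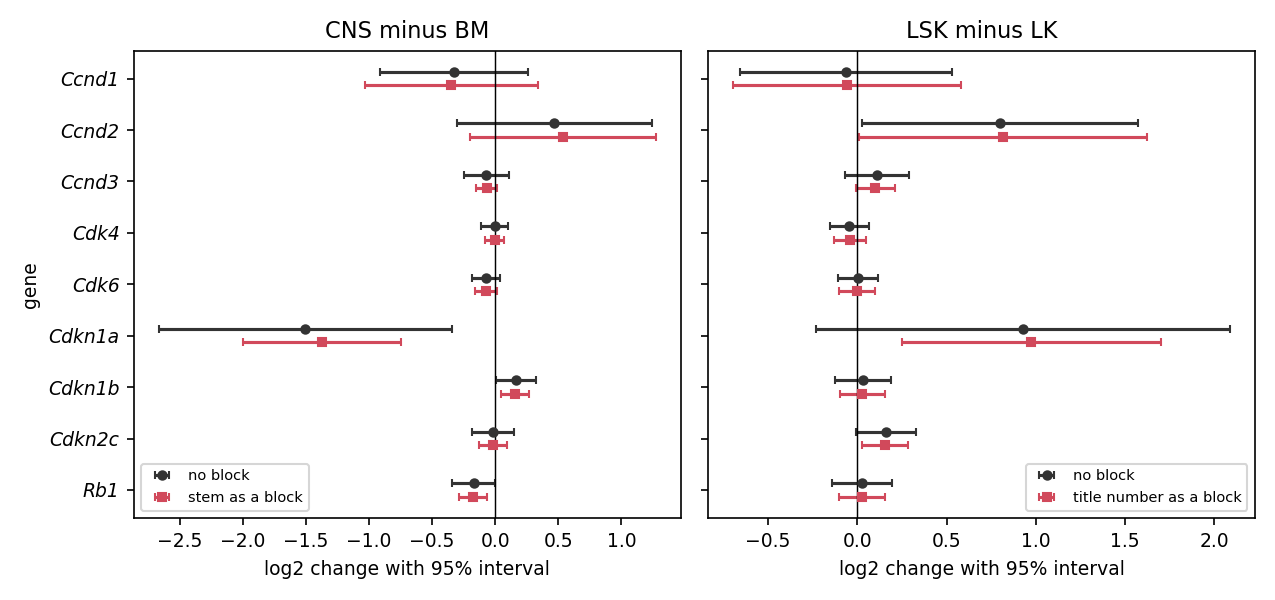
Log2 change of the 9 tested genes between niches (left, CNS minus BM) and LPC types (right, LSK minus LK), as points with 95% intervals, without a block and with the stem or title number as a block. The intervals of Cdk4, Cdk6, Ccnd3 and Cdkn2c stay narrow around 0 between niches, and that of blocked Cdkn1a runs from −1.997 to −0.75.

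Between LPC types, 0 of the 9 genes passed (edgeR; 0.238% of 18878 genes did, 43 higher and 2 lower in LSK), and DESeq2 also called 0 of them. Ccnd2 was the one gene at an unadjusted p under 0.05, beside 12.1% of all genes. Apart from Ccnd2, Cdkn1a (0.93 ± 0.555, adjusted p = 0.529) and Cdkn2c, the LSK minus LK changes lay between −0.06 for Ccnd1 and 0.11 for Ccnd3. Within BM, within CNS and for the interaction of niche and LPC type, edgeR called 0 of the 9 genes and 0% of all genes; none of the 9 stood at an unadjusted p under 0.05 there, beside 6.38%, 6.58% and 1.49% of all genes.

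Lists of related genes covered the rest of the pathway. Of 30 other genes of the G1/S transition, 29 were tested, and 0 passed between niches, with or without the block. At an unadjusted p under 0.05 stood 1 of the 29 without it (9.15% of all genes) and 5 with it (13.4% of all genes). Their median niche change was −0.052, with 4 of 29 above 0, against 0 over all genes. The gene with the smallest p, Tfdp1, a partner of the E2F factors, was at 164 ± 2.38 CPM in BM LSK and 151 ± 7.20 CPM in CNS LSK (−0.10 ± 0.0467 over both LPC types, adjusted p = 0.527). Of 20 E2F targets of S phase entry, 0 passed with or without the block, with a median of −0.058 and 3 of 20 above 0 without it. At an unadjusted p under 0.05 stood 0 without the block (9.15% of all genes) and 3, all lower in CNS, with it (5.38% of all genes were lower). Within LSK 6 of the 20 did so with the block, all lower in CNS, beside 4.59% of all genes. The DNA polymerase gene Pole (−0.12 ± 0.0597, adjusted p = 0.569) had the smallest p of the 20 targets without the block.

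No gene of the p53 pathway list passed between niches. Of 18 in it, 15 were tested, and 0 were called with or without the block. At an unadjusted p under 0.05 stood 1 of the 15 without it (9.15% of all genes) and 2 with it (13.4% of all genes). The median change of the 15 was −0.016. Btg2, a p53 target that restrains proliferation, was higher in CNS by 0.31 ± 0.107, which did not pass (adjusted p = 0.4, or 0.146 with the block). Its levels were 11.0 ± 1.16 CPM in BM LSK, 13.8 ± 2.89 in CNS LSK, 14.0 ± 1.49 in BM LK and 17.2 ± 3.30 in CNS LK. The pro-apoptotic Bax was higher by 0.15 ± 0.0825 (adjusted p = 0.63).

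Between LPC types, the G1/S list, the E2F targets and the p53 list held 0 genes that passed in edgeR without a block. At an unadjusted p under 0.05 stood 4 of 29, 3 of 20 and 3 of 15, beside 12.1% of all genes. Closest were Ccna2, the cyclin of S and G2 phase (0.42 ± 0.0993 higher in LSK, adjusted p = 0.086, or 0.0098 by DESeq2), and Cks1b, a subunit of cyclin-kinase complexes (0.30 ± 0.0792, adjusted p = 0.12, or 0.0387 by DESeq2). With no filter on low counts, Ccna2 (adjusted p = 0.00486) and Btg2 of the p53 list (−0.39, adjusted p = 0.0203) passed. Of 20 G2/M genes, 12 passed as higher in LSK over both niches, as did 0.228% of all genes. All 20 were above 0, with a median of 0.43 against −0.01 over all genes. Ube2c, which feeds the anaphase-promoting complex, was at 38.5 ± 6.02 and 42.9 ± 7.09 CPM in BM and CNS LSK and at 23.3 ± 4.34 and 26.2 ± 2.59 CPM in BM and CNS LK (0.72 ± 0.0969, edgeR adjusted p = 0.00248). Ccnb1, the mitotic cyclin, rose by 0.59 ± 0.0969 (edgeR adjusted p = 0.0117). The fits over both niches count the BM and CNS library of a stem as separate. If a stem's libraries are related, such p-values between LPC types are too small. Within BM and within CNS each stem gives 1 library, and edgeR called 0 of the 20 there, as it did 0% of all genes. At an unadjusted p under 0.05 stood 20 and 17 of them, all higher in LSK, beside 6.38% and 6.58% of all genes. The count of 12 became 5 to 7 without BM LSK 1, CNS LSK 1, CNS LSK 3, BM LK 1, BM LK 2, BM LK 4, CNS LK 1, CNS LK 2 or CNS LK 3. The highest count without a library was 17, without CNS LSK 2. By DESeq2 the count was 18, and it was 16 with no filter on low counts and 16 with the title number as a block.

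Among the 6 well expressed genes, 15 pairs were correlated over the 8 stems, using the mean of each stem's BM and CNS libraries. Ccnd3 and Cdkn2c were closest, with Pearson's r = 0.857 (exact permutation p = 0.00776, adjusted p = 0.116) and Spearman's rho = 0.881 (exact permutation p = 0.00724, adjusted p = 0.109). The Ccnd3 and Cdkn2c r was 0.931 in BM libraries, 0.701 in CNS libraries and 0.857 with each LPC type centred on its mean. Without the 2 stems farthest from the Ccnd3 median it was 0.503, over 6 stems. Cdk6 and Rb1 followed (r = 0.72, exact permutation p = 0.048, adjusted p = 0.36; rho = 0.786, exact permutation p = 0.0279, adjusted p = 0.209; r = 0.523 without the 2 farthest stems). No pair passed after adjustment. The permutations treat the 8 stems as independent, though LSK and LK stems of the same title number share the start of their description. If such stems are related, these p-values are too small.

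**Figure D4:**
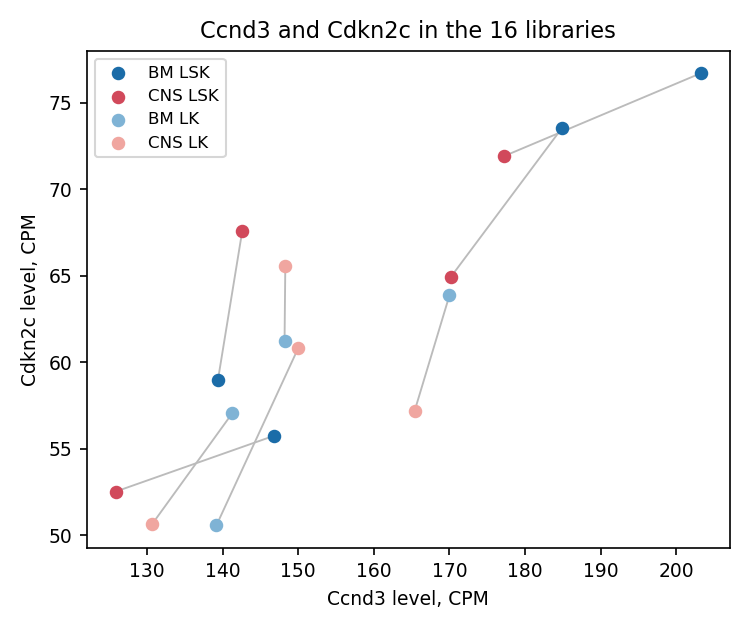
Cdkn2c against Ccnd3, both in CPM, in the 16 libraries coloured by group, with grey lines joining the BM and CNS library of a stem; the axes do not start at 0. The libraries of stems LSK 1 and LSK 3 stand at the upper right, at 170 to 203 CPM of Ccnd3. BM LK 3 lies beside the lowest of them, at 170 CPM of Ccnd3 and 63.9 CPM of Cdkn2c.

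For each gene with a mean of at least 50 counts, the genes with the most similar pattern were sought by Pearson's r of log2(CPM + 0.5) over the 16 libraries among 11634 others, as a description in which points share libraries and depth. Ccnd3 was most like Slc9a5 (r = 0.911) and Arhgef10 (0.901), and Cdkn2c most like Rsrc1 (0.911) and the histone gene H2afx (0.898). Cdkn1b was most like Dntt (0.844), the template-independent DNA polymerase of lymphoid progenitors, and Ppp1r26 (0.832). Rb1 was most like Pou2af1 (0.883), a B-cell coactivator, and Btg3 (0.874). Cdk4 was most like Coro1b and Taf10 (both 0.819), and Cdk6 most like Gm16425 (0.881) and Ipo5 (0.819). With the minimum lowered to 10 counts after the data were seen, Cdkn1a was most like Setd3 (0.932) and Mast2 (0.924), Ccnd2 most like Lrrc49 (0.938), and Ccnd1 reached at most 0.767, with Gm9790.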

How the data were processed

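The authors deposited whole-number counts per Ensembl gene, called normalised by them; library totals differ (19.2 to 29.2 M) and median-of-ratios size factors run from 0.804 to 1.3, so the deposited counts were treated as raw. RNA was prepared with a stranded total RNA kit for picogram input, per the labels' protocols. The submitters' processing notes name GRCm39 and DESeq2; the aligner, counter and annotation are not given in the sources used here. Counts may not be independent molecules. No replicate pair was a duplicate (chi-square over its degrees of freedom was 10.6 to 41.6).

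Genes with a mean of at least 10 counts (18878) were tested in edgeR 4.0.16 (R 4.3.3). The settings were TMM factors, 4 group means over 16 libraries, two-sided quasi-likelihood tests and Benjamini-Hochberg adjustment at 0.05. The test was checked on simulated counts drawn without differences between stems, so the blocked fit was not checked on paired data. Levels are CPM on TMM-scaled library sizes. The members and lists were chosen with earlier results of these data known. Named genes are all 10 of the family and, per list and comparison, up to 4 genes called, or at most 2 with the smallest p.

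Deviations from group means correlated within every stem (0.111 to 0.339 over 8 stems; 0.353 to 0.625 at a mean of at least 50 counts), so the shared stem in the labels was taken to pair libraries, and values blocked by stem stand where they change a call. The alternatives were other size factors, DESeq2 1.42.0, other count minimums, identifiers with a symbol (52081 of 55414), blocks, and leaving out each library or stem. Gene lengths, overlaps and near copies come from GENCODE M21 (GRCm38), matched by identifier, and promoters from RefSeq.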

Additional observations from a re-analysis of the deposited data

Results flagged for a closer look

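Rb1 in BM LK 2 stood at 19.7 CPM, apart from the other 3 BM LK libraries at 25.7 to 26.0 CPM. Of 36 groups of 4 libraries examined for a library apart (9 genes, 4 groups), this was the only one, where chance gives about 1.8. The CNS library of the same stem, CNS LK 2, was at 18.95 CPM of Rb1, the lowest in its group.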

How the results depend on the processing

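Of 1426 values recomputed under an alternative, 1287 kept their direction and side of the threshold or moved less than the limit. Depth limits Cdkn1a, Ccnd1, Ccnd2 and Cdkn2a most, at a mean of 30.31, 17.5, 13.5 and 3.75 counts per library.

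The count of the 9 genes called between niches over both LPC types was 1 with no filter on low counts (Cdkn1a, adjusted p = 0.0141) and 1 with the stem as a replicate block. Under that block it was 2 with no filter (Cdkn1a, and Rb1 at adjusted p = 0.0479), 1 for LK alone with no filter (Cdkn1a, adjusted p = 0.00738), and 0 at a mean of at least 50 counts, which leaves Cdkn1a out of the test; it was 0 to 1 without each stem in turn. The stem block changed no other call of these genes.

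Counts over all genes depended on the settings. DESeq2 called 40 genes between niches, 222 between LPC types, 25 of the latter kind within BM and 6 within CNS. With no filter these were 85, 290, 48 and 38, with 10 between niches within LSK and 14 within LK. The stem block gave 126 genes over both LPC types, 26 within LSK and 12 within LK. Under that block, DESeq2 called 43 within LSK and 34 within LK, no filter gave 454 over both, 165 within LSK and 121 within LK, and identifiers with a symbol gave 25 within LK. Leaving out each stem gave 78 to 140 genes over both (79 without LSK 3), 9 to 37 within LSK (16 without LSK 2) and 7 to 19 within LK. Leaving out each library gave 15 (without CNS LK 3) to 138 (without CNS LSK 2) between LPC types, 0 to 2 within BM and 0 to 3 within CNS. The cause of these differences was not tested.

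LSK and LK libraries of the same title number also share the start of their description, whose meaning is not given in the sources used here. Same-numbered libraries correlated above 0.1 in 4 of 8 cases (−0.114 to 0.239). With only genes averaging 50 counts or more it was 6 of 8 cases (0.061 to 0.362). The number was not taken as a pairing in the main results, and whether these libraries are related was not settled. As a replicate block the title number gave 162 genes between LPC types, 0 of the 9 among them, and 1 gene of the G1/S list, Ccna2 (0.41, edgeR adjusted p = 0.00251).

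Signs reversed only for changes that were called in no fit. Between LPC types, no filter gave −0.058 for Cdk6, −0.028 for Cdkn1b and −0.034 for Rb1, and the title-number block −0.0018 for Cdk6; without each library the ranges were −0.27 to 0.066 for Ccnd1, −0.027 to 0.035 for Cdk6, −0.0019 to 0.11 for Cdkn1b and −0.021 to 0.068 for Rb1. Between niches, a mean of at least 50 counts gave 0.0201 for Cdk4 and 0.0061 for Cdkn2c (0.0198 and 0.0079 with the stem block). Without each library the niche ranges were −0.029 to 0.019 for Cdk4 and −0.059 to 0.021 for Cdkn2c. Without each stem they were −0.020 to 0.0075 for Cdk4 (0.0012 without LSK 1, 0.0036 without LK 1) and −0.058 to 0.014 for Cdkn2c (0.0113 without LK 3). Within LSK they were −0.27 to 0.37 for Ccnd1 and −0.12 to 0.0027 for Cdk6 without each library, and −0.54 to 0.55 and −0.10 to 0.0018 without each stem.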
